A study of Mus musculus with 48 samples.

Results

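C2C12 cells are mouse myoblasts of an established line, the mononucleated precursors that fuse into muscle cells. The comparison described here is that of C2C12 myoblasts after 1 h of cyclic stretch with myoblasts that were not stretched. Its members are the 8 myoblast libraries labelled 1 h, 4 stretched and 4 non-stretched, out of 48 libraries in the series, and every gene in their count table was considered. The cells grew on the flexible, collagen-coated bottoms of six-well plates, which a Flexcell device deformed cyclically and equally in all directions, while the controls stayed on such plates without deformation. Both groups are the same unmodified line under the same culture conditions, with no allele or drug added, and replicates 7 and 8 came from a different experiment than replicates 9 and 10 (the title of stretched replicate 9 carries another experiment code than its column in the count table, which was followed). The series holds the same design at 3 h and 6 h and in differentiated C2C12 cells, each time point with non-stretched cells of its own. Nothing in the labels says that samples of an experiment came from separately passaged cultures, so the p-values measure the spread between these 8 samples, part of which may be technical.

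Cells that receive a mechanical or growth-factor signal switch on immediate early genes within minutes, without new protein synthesis. The first of them encode transcription factors of the AP-1, Egr and Nr4a families, others encode feedback inhibitors of ERK signalling and secreted factors, and many of their mRNAs are short-lived. C2H2 zinc finger proteins form the largest family of DNA-binding proteins in the mouse. Most carry tandem arrays of fingers, many carry a KRAB domain that recruits repressors, and their genes lie in clusters that arose by duplication.

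The 8 libraries held between 50998523 and 68856205 counts. The noncoding ribosomal entry Rn18s-rs5 took 5.72% of the counts in stretched replicate 7 and 3.66% in non-stretched replicate 7, against 0.866% to 1.97% in the other 6 libraries, so the counts of all rises and falls, and of Zfp, AP-1, Egr and Nr4a, predicted and long noncoding genes, were also made without both of these libraries. The markers of the labelled cell type were expressed, and so were some markers of other lineages. All 10 myoblast markers passed the filter on low counts, with a summed level of 1763 to 1925 CPM (counts relative to library size, scaled with TMM factors) in the non-stretched and 1745 to 1811 CPM in the stretched libraries. The 12 markers of differentiated muscle summed to 13.5 to 23.4 and 12.1 to 14.04 CPM, and of the markers of other lineages Thy1, Lum, Tcf21, Cfd, Tie1, Adgre1 and Cd3e had no count in any library. Others were expressed. The 4 smooth muscle markers summed to 123 to 137 CPM without and 131 to 136 CPM with stretch. The 5 adipocyte markers held 15.3 to 18.7 and 16.4 to 19.2 CPM, and the 5 epithelial markers 15.1 to 19.4 and 17.3 to 21.1 CPM. The fibroblast marker Col3a1 held 989 to 1160 CPM over the 8 libraries. Summed levels of 2 other lists did not overlap between the groups. The 6 fibroblast markers held 1096 to 1173 CPM without and 999 to 1084 CPM with stretch, and the 5 markers of glia or neurons 0.947 to 1.21 and 0.600 to 0.883 CPM, and no marker of either list passed the adjusted p. Their part in the results was not tested.

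After 1 h of stretch, a small set of genes rose, among them immediate early genes. A larger set fell, which included many C2H2 zinc finger genes and the nuclear RNA Neat1. Of 14938 genes tested, 38 were upregulated (0.254%) and 149 downregulated (0.997%), at an adjusted p under 0.05 and a log2 ratio of 0.58 or more, up or down (the quasi-likelihood test of edgeR, p adjusted by Benjamini-Hochberg, as throughout). Without the limit on the fold change, 250 genes rose (1.67%) and 634 fell (4.24%). The median log2 fold change of all genes was 0.0024. Counted by library, 833 genes (5.58%) were higher in every stretched than in every non-stretched library and 1197 (8.01%) were lower. Of the upregulated genes 36 and of the downregulated genes 147 were separated in this way. The counts of calls moved with single libraries and with the experiment. There were 96 downregulated genes without non-stretched replicate 9, 97 without stretched replicate 9 and 95 without both replicates 7, and replicates 7 and 8 alone gave 13 upregulated and 14 downregulated genes, against 24 and 139 in replicates 9 and 10 alone.

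**Figure D1:**
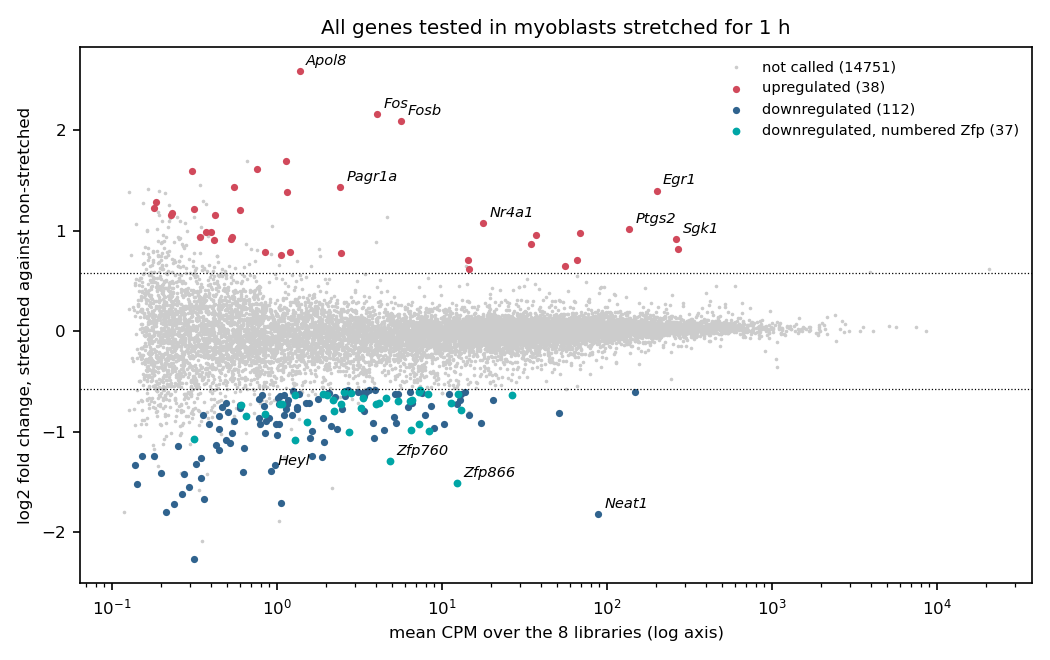
Log2 fold change (stretched against non-stretched myoblasts, 1 h) of the 14938 genes tested, against their mean CPM over the 8 libraries on a log axis. Dotted lines mark the limits of 0.58 in either direction, and the 38 upregulated, the 112 downregulated and the 37 downregulated Zfp genes are coloured.

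Of the upregulated genes, 16 had a mean of at least 100 counts over the 8 libraries, and all but Pagr1a belong to the lists of early genes, feedback inhibitors, inducible kinases, YAP targets and secreted signals described here. Those lists were chosen with earlier results of these data known, so this membership is in part built in. Another 16 had under 50 counts, and the rest, among them Apol8 and Il20rb, lay between. The promoters of those with at least 100 counts are shown because members that move together can be compared by the letters before their start sites. RefSeq windows (GRCm38.p6) of 250 bases before to 50 bases after a transcription start were found for 14 of the 16 genes, and not for Egr1 and Ctgf. They were searched on both strands for the cAMP response element TGACGTCA and its core TGACG (the full element holds the core once on each strand), the AP-1 site TGANTCA, the TEAD site GGAATG, the ETS site CCGGAAG, the EGR site GCGNGGGCG and the CArG box of serum response factor. The core TGACG was present in 10 of 14 genes, against 35.2% of the 10413 tested genes with a window and 20.8% of all 32851 windows. Among genes with a single window it was in 8 of 12, against 32.9% of 8298. The full TGACGTCA occurred in Dusp1 and Ppp1r15a, 2 of 14 genes, against 3.58% of tested genes. The TEAD site was in 5 of 14 genes (14.1% of tested genes) and the EGR site in Fosb and Nr4a1 (12.3%), while the AP-1 site was in Csrnp1 only (6.34%). Neither the ETS site (19.8%) nor the CArG box (1.67%) occurred in these windows of the 14 genes. Sites farther from the start, and any site of Egr1 and Ctgf, were not searched for. Of all windows, 1.79% held TGACGTCA, 7.81% the AP-1 site, 14.7% the TEAD site, 8.86% the ETS site, 5.55% the EGR site and 1.63% the CArG box. These matches are a description of the letters, chosen after the values were seen, and were not tested.

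The 250 bases upstream of the start are given for 6 of these genes, 5′ to 3′ on the strand of the gene, with TGACG or its reverse complement in capitals. They are those of Fos (chr12:85473640-85473889, plus strand), Fosb (chr7:19310046-19310295, minus strand), Nr4a1 (chr15:101266596-101266845, plus strand), Dusp1 (chr17:26508473-26508722, minus strand), Ppp1r15a (chr7:45526269-45526518, minus strand) and Cyr61, whose RefSeq symbol is Ccn1 (chr3:145649986-145650235, minus strand).
Fos: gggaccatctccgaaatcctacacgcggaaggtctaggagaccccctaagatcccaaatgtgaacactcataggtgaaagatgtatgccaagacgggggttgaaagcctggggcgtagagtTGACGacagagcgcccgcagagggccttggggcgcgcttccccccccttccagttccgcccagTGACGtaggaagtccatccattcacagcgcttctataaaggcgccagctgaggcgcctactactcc
Fosb: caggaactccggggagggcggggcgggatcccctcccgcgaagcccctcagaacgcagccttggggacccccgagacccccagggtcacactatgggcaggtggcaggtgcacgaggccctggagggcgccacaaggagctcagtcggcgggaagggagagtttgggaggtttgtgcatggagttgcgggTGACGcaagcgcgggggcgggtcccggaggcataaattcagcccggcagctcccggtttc
Nr4a1: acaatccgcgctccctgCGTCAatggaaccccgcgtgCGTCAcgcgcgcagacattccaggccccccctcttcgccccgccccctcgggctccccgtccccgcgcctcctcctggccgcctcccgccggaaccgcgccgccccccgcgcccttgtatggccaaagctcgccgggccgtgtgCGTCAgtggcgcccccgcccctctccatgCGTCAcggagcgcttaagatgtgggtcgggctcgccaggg
Dusp1: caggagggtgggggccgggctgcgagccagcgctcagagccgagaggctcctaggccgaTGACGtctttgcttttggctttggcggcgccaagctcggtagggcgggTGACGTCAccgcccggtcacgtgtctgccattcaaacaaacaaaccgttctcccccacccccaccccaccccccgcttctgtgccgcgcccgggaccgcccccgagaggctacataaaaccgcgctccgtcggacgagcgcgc
Ppp1r15a: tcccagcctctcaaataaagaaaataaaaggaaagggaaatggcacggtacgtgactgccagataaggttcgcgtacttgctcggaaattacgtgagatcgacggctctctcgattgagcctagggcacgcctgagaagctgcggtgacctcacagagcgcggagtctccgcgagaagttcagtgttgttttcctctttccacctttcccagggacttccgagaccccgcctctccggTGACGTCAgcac
Cyr61: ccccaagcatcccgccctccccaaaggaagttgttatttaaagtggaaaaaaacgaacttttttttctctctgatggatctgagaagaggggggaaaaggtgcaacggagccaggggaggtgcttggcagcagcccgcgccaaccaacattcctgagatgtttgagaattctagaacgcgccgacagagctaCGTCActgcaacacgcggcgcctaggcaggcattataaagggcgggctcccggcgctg
In Fos the core lay 129 and 66 bases before the start, in Fosb 60 and in Cyr61 58 bases before it. Nr4a1 had 4 cores, at 233, 213, 69 and 40 bases before the start, the most among the 6 sequences printed. The full element began 143 bases before the start in Dusp1 and 12 bases before it in Ppp1r15a. The 6 sequences printed all hold the core. The windows of Pagr1a, Edn1, Ier3 and Rgs16, not printed, held none, and the core of Ptgs2 lay 13 bases after the start.

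**Figure D2:**
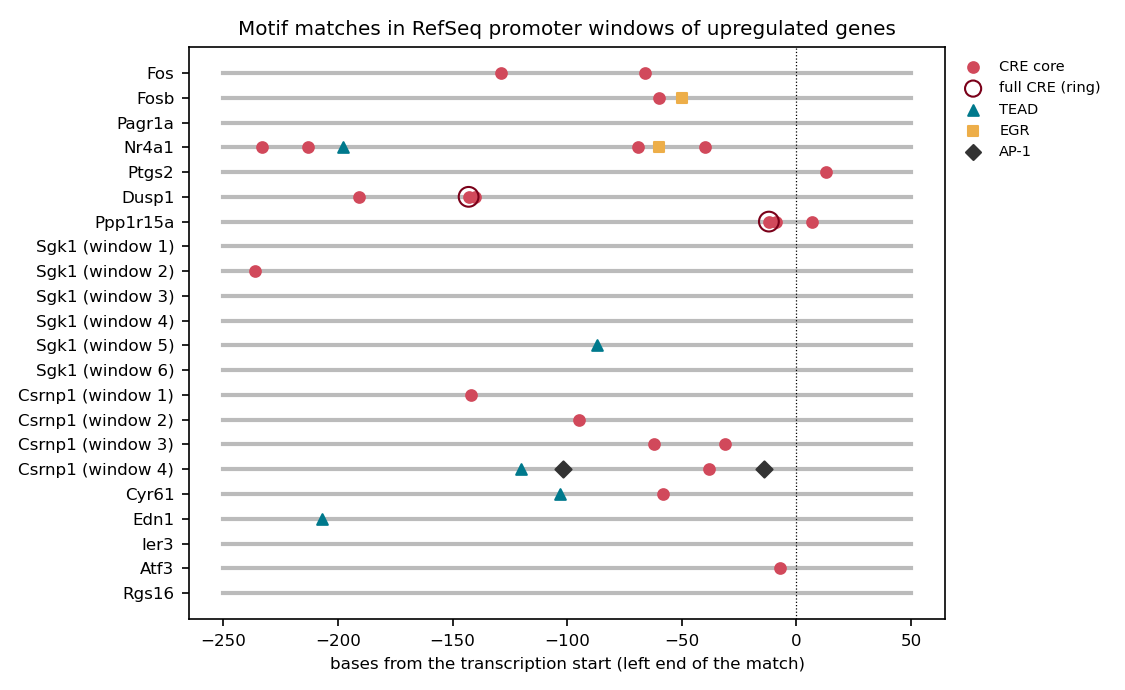
Positions of motif matches in the RefSeq windows of the 14 upregulated genes with at least 100 counts, in bases from the transcription start (dotted line). A grey line is a window of 250 bases before to 50 after a start, with several windows for Sgk1 and Csrnp1, and the core of the cAMP response element (red) lies in 10 of the 14 genes.

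The largest rise with at least 100 counts was that of Fos, the founding AP-1 subunit (chromosome 12 of mm10, 85473890 to 85477273). Non-stretched replicates 7 to 10 held 1.52, 1.61, 1.52 and 1.30 CPM and stretched replicates 7 to 10 held 5.92, 5.92, 7.09 and 7.57 CPM. The groups were far apart, with a change of 2.16 ± 0.109 on the log2 scale (± standard error, edgeR adjusted p = 1.51e-06). Fosb, a second Fos family subunit, was at 2.38, 2.01, 1.80 and 2.45 CPM without and at 7.67, 8.04, 11.5 and 9.47 CPM with stretch, a change of 2.09 on the log2 scale. For both genes the stretched libraries of replicates 9 and 10 lay above those of replicates 7 and 8, and the groups overlapped in neither experiment. These and the other largest rises were picked from genes without overlap, so its absence is built in for them. Atf3, a stress-induced member of the wider bZIP family, rose from 11.1 ± 0.536 to 18.0 ± 1.74 CPM (SD, n = 4). Maf, another bZIP factor, fell from 2.78 ± 0.376 to 1.76 ± 0.0592 CPM. Among the 13 AP-1 factors tested, 3 were thus upregulated and 1 downregulated, against 0.254% and 0.997% of all genes. The list's median log2 fold change was 0.14. The small Maf factors Mafk (0.27) and Maff (0.24) rose under the fold limit. Junb stood at 0.16 (edgeR adjusted p = 0.0961) and Fosl1 at 0.14 (0.156), which did not pass.

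Egr1, a zinc finger activator induced by ERK and serum response factor, had the smallest adjusted p of all genes tested. It went from 114, 112, 109 and 106 CPM in non-stretched replicates 7 to 10 to 287, 294, 280 and 301 CPM in the stretched ones, with no overlap and a change of 1.40 ± 0.0346 on the log2 scale (± standard error, edgeR adjusted p = 2.09e-09). Nr4a1, an orphan nuclear receptor (chromosome 15, 101254269 to 101274795), was at 11.5, 11.9, 9.87 and 12.6 CPM without and at 23.0, 22.4, 27.6 and 23.4 CPM with stretch. Its log2 fold change was 1.08 (standard error 0.0821), a 2.11-fold rise, and the groups did not overlap. Csrnp1, a nuclear protein rich in cysteine and serine, rose by 0.86 and Ier3, an early regulator of apoptosis, by 0.71. In the list of 15 Egr, Nr4a and related early genes, these 4 were upregulated and Arc was downregulated (-0.60), against 0.254% and 0.997% of all genes. The list's median was 0.18. Arc, best known from neurons as an activity-induced gene, was at 8.11, 8.28, 7.01 and 7.72 CPM without and at 5.57, 5.79, 4.42 and 4.78 CPM with stretch. All 4 stretched libraries were below every non-stretched one, and Csrnp2 (-0.19) fell as well. Ier2 (0.49), Egr2 (0.30), Nr4a2 (0.14) and Srf (0.18) also rose, by less than the fold limit.

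Among 17 feedback inhibitors of ERK signalling, 8 passed the adjusted p and rose, 7 of them by less than the fold limit. Dusp1, a phosphatase that inactivates MAP kinases, was at 49.2, 47.5, 43.9 and 45.3 CPM without and at 91.4, 89.9, 93.7 and 91.3 CPM with stretch, a change of 0.98 ± 0.0380 on the log2 scale (± standard error, edgeR adjusted p = 1.37e-07). It was the only upregulated gene of this list. None of the 17 fell at the adjusted p and 4 had a value below 0, and 1.67% of all genes tested rose at this threshold. The other 7 were Spry2 (log2 fold change 0.44), Dusp5 (0.44), Dusp6 (0.36), Spry4 (0.31), Dusp4 (0.26), Spred2 (0.15) and Dusp10 (0.14). The list's median was 0.14. Against 0.254% of all genes, 3 of 18 inducible kinases and phosphatase regulators were upregulated. They were Ppp1r15a, which directs a phosphatase to eIF2α (0.96), Sgk1, a kinase induced by serum and glucocorticoids (0.91), and Rgs16, an inhibitor of G protein signalling (0.62). Sgk1 went from 194, 196, 167 and 177 CPM to 336, 325, 368 and 355 CPM, again without overlap. Plk2 (0.43), Trib1 (0.32) and Sik1 (0.30) rose below the fold limit and Map3k14 fell (-0.37), and the median of this list was 0.02.

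YAP and TAZ are coactivators that enter the nucleus when cells are under tension, and 2 of 23 of their target genes were upregulated. Cyr61, a secreted matricellular protein, was at 196, 194, 199 and 200 CPM without and at 358, 354, 332 and 342 CPM with stretch. The spread within each group was small beside the difference, a change of 0.81 ± 0.0323 on the log2 scale (± standard error, edgeR adjusted p = 1.37e-07). Ctgf, its relative, rose from 43.3 ± 5.50 to 68.0 ± 2.13 CPM (SD, n = 4). Of the 23 targets, 7 passed the adjusted p upward and 1 downward, and 20 had a value above 0. The median was 0.10. Of all genes tested, 0.254% were upregulated and 7639 of 14938 lay above 0. At the adjusted p 1.67% of all genes rose and 4.24% fell. Ankrd1 (0.45), Amotl2 (0.37), Gadd45a (0.45), Ajuba (0.21) and Lats2 (0.16) rose under the fold limit and Nuak2 fell (-0.51). None of 24 SRF and actin genes reached the fold limit. Fhl2 (0.19), Tagln (0.19) and Acta2 (0.17) rose, and the list's median was 0.05.

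Some genes of secreted signals and their receptors rose. Ptgs2, the inducible enzyme of prostaglandin synthesis, was at 95.7, 95.2, 85.4 and 87.5 CPM without and at 170, 183, 210 and 172 CPM with stretch, a change of 1.01 ± 0.0657 on the log2 scale (± standard error, edgeR adjusted p = 1.09e-05). Edn1, which encodes the vasoactive peptide endothelin, rose by 0.77 and Il20rb, a cytokine receptor subunit at a mean of 64 counts, by 0.76. Of 23 cytokine and prostaglandin genes, 3 were upregulated, 8 rose at the adjusted p alone and 1, the growth factor Ptn, was downregulated (-0.74). Of all genes, 0.254% were upregulated, 1.67% rose at the adjusted p and 0.997% were downregulated. Lif (0.57), Gdf15 (0.52), Vegfa (0.34), Ptger4 (0.31) and Csf1 (0.23) rose under the fold limit, and the list's median was 0.19. The EGF receptor ligands Ereg (0.54), Areg (0.42) and Hbegf (0.39) were the 3 of 10 EGF family genes that passed the adjusted p. Myc (0.38) rose as well, while Zfp36, which speeds the decay of early mRNAs, fell (-0.42).

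**Figure D3:**
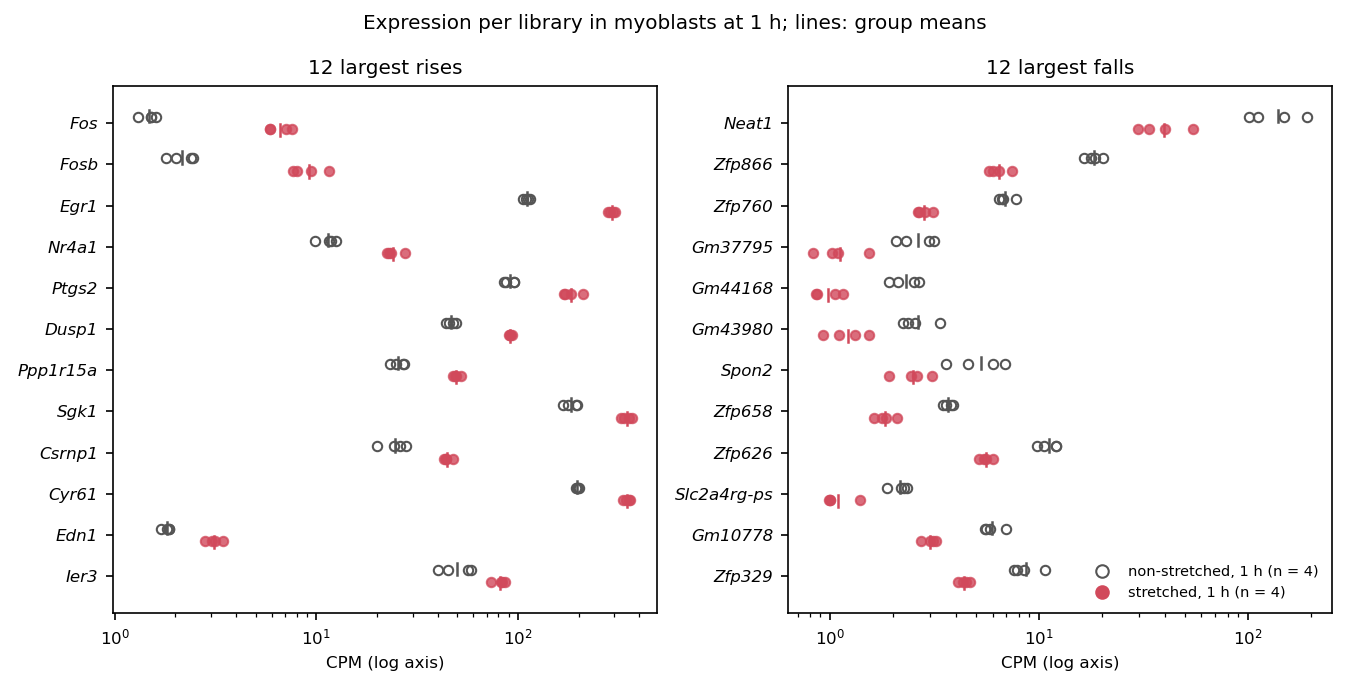
CPM of each library (log axis) for the 12 largest rises and the 12 largest falls among called genes whose groups do not overlap and whose mean is 100 counts or more. Open grey points are the 4 non-stretched and red points the 4 stretched libraries, and short lines are the group means.

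Some upregulated genes rest on few or shared reads. Apol8, an apolipoprotein L gene, had a larger log2 fold change than Fos (2.58) at a mean of 81 counts, from 0.265, 0.478, 0.444 and 0.383 CPM to 2.57, 2.96, 2.10 and 1.83 CPM. The groups did not overlap. Pagr1a (1.43) was at 1.24, 2.01, 0.873 and 1.15 CPM without and at 1.65, 3.64, 4.28 and 4.51 CPM with stretch. Stretched replicate 7 lay within the range of the non-stretched libraries, and 93.2% of the 31-base stretches of this gene occur in other genes too, so its value is uncertain.

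Of 325 numbered Zfp genes tested, 37 were downregulated, against 0.997% of all genes, and none was upregulated. At the adjusted p alone 118 fell (4.24% of all genes did) and 5 rose. The median log2 fold change of the 325 genes was -0.21, and 270 (83.1%) had a value below 0, against 48.9% of all genes. Averaged over the list, log2 CPM in stretched replicates 7 to 10 lay 0.260, 0.231, 0.270 and 0.258 below the mean of the non-stretched libraries, whose own values lay between -0.0593 and 0.0801 around it. The stretched libraries were thus alike and below every non-stretched one. The median was -0.16 in replicates 7 and 8 and -0.26 in replicates 9 and 10. The count of downregulated Zfp genes was 22 without non-stretched replicate 9 and 26 without both replicates 7, with 8 in replicates 7 and 8 alone. In bulk samples such as these, fewer cells that express a gene and less of its RNA per cell cannot be told apart.

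Zfp866 (chromosome 8, 69761326 to 69791178), which encodes a protein with 12 C2H2 fingers, fell most among them. It was at 18.6, 16.5, 20.3 and 17.8 CPM without and at 6.03, 7.43, 6.42 and 5.80 CPM with stretch, a change of -1.51 ± 0.0842 on the log2 scale (± standard error, edgeR adjusted p = 2.87e-06). Every stretched library was far below every non-stretched one. The gene lies antisense to part of Atp13a1, and reads of the pair cannot be told apart if the counting did not use the strand. Zfp760 (chromosome 17, 21707741 to 21725636, 16 fingers) went from 6.66, 6.76, 7.75 and 6.45 CPM to 2.63, 3.12, 2.84 and 2.67 CPM, a change of -1.29. Zfp658 (-1.01), Zfp626 (-0.9952) and Zfp329 (-0.98) were also among the 12 largest falls, which were picked from genes without overlap. Their stretched libraries held 1.62 to 2.09, 5.18 to 6.04 and 4.12 to 4.69 CPM, and their non-stretched ones 3.46 to 3.88, 9.84 to 12.03 and 7.59 to 10.8 CPM. Gm10778, a predicted gene that encodes 14 fingers, fell by 0.98 on the log2 scale, but other genes hold 97.8% of its 31-base stretches. Zfp628 (0.29), Zfp36l2 (0.18), Zfp622 (0.18), Zfp609 (0.14) and Zfp384 (0.12) were the 5 that rose.

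The falls were most frequent among genes that encode many fingers. Fingers were counted in the open reading frames of GENCODE vM21 transcripts, a grouping made after the values were seen and given without a test. Of 11546 protein-coding genes with no C2H2 finger, 0.398% were downregulated, with a median log2 fold change of 0.0054. Among 301 genes with 1 to 4 fingers 0.997% were downregulated (median 0.0031), among 141 genes with 5 to 9 fingers 2.13% (median -0.15) and among 248 genes with 10 or more 16.9% (median -0.29). In the last class 100 of 248 genes fell at the adjusted p and 1 rose. Numbered Zfp genes with under 5 fingers had a median of -0.04 (60 genes, 1 downregulated), whereas 125 genes with 5 or more fingers that bear other names had a median of -0.15 and 10 downregulated members. Genes with 5 or more fingers also differ from other genes in base composition, with a median GC content of 43.6% against 50% for genes without fingers. Below 45% GC, 37 of 217 genes with 5 or more fingers (17.1%) and 10 of 2778 without fingers (0.36%) were downregulated, and at 45% or above 8 of 172 (4.65%) and 36 of 8768 (0.411%). Because related finger genes share sequence, the counts of some depend on how reads were divided between them. Of 36 downregulated Zfp genes with an annotation, 27 had under 10% of their 31-base stretches in other genes, and among all genes with 5 or more fingers under that limit 31 of 286 (10.8%) were downregulated.

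**Figure D4:**
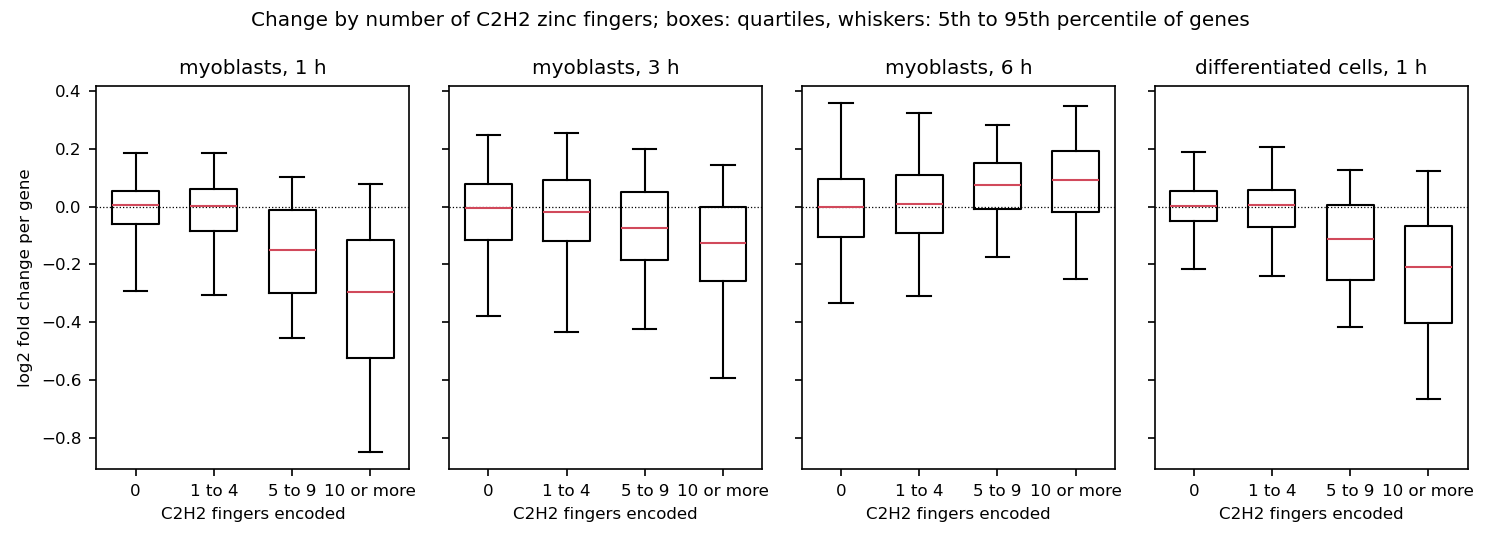
Log2 fold change per protein-coding gene by the number of C2H2 zinc fingers it encodes, for the 3 times in myoblasts (1 h, 3 h, 6 h) and for differentiated cells at 1 h. Boxes are quartiles with the median in red, and whiskers reach from the 5th to the 95th percentile of genes, with a median of -0.29 for 10 or more fingers in myoblasts at 1 h and of 0.09 at 6 h.

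Several of the downregulated finger genes are neighbours. On chromosome 7 all 4 Zfp genes tested between 27731389 and 27979171 were downregulated, namely Zfp60 (-0.79), Zfp626 (-0.9952), Zfp59 (-0.67) and Zfp780b (-0.59). Between 24112314 and 24262445 on the same chromosome 4 of 5 were, namely Zfp112 (-0.73), Zfp235 (-0.79), Zfp109 (-0.64) and Zfp108 (-0.85). Chromosome 13 held 6 downregulated genes of 21 Zfp genes tested between 67038596 and 67827002, and chromosome 17 held 3 of 6 between 33016863 and 33394641. These spans begin and end at downregulated genes, so that their shares are high by construction. Of 82 Zfp genes tested on chromosome 7 as a whole, 13 were downregulated, and on chromosomes 13 and 17 these numbers were 7 of 34 and 6 of 42. Over all chromosomes, 37 of 325 were (11.4%). Outside these spans, most downregulated Zfp genes with an annotation had no other one within 1 megabase.

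Among 37 Zbtb genes, which join a BTB domain to zinc fingers, Zbtb26 (-0.83) and Zbtb34 (-0.63) were downregulated and 27 had a value below 0 (median -0.08). Of all genes tested, 0.997% were downregulated and 48.9% had a value below 0. Among 51 Kelch and BTB genes, many of them adaptors of ubiquitin ligases, 4 were downregulated, and the list's median was -0.10. They were Klhl31 (-0.93), which is known from skeletal muscle, Kbtbd8 (-0.91), Kbtbd6 (-0.75) and Kctd21 (-0.63). Hoxa3 (-0.95) was the downregulated gene among 21 Hox genes (median -0.10). It overlaps Hoxa4, Hoxa5 and Hoxa6 and several antisense transcripts in the annotation, and whether the counting used the strand is not given in the sources used here. Irf1 (-0.61) and Stat2 (-0.69), factors of the interferon response, were downregulated among 20 STAT and IRF genes, and Irf9 (-0.43), Socs1 (-0.31) and Socs3 (-0.22) fell as well. Stat2 was at 15.6, 13.9, 17.7 and 16 CPM without and at 10.4, 9.25, 9.36 and 10.3 CPM with stretch, so the groups did not overlap.

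Some long noncoding RNAs fell. Neat1, the scaffold of nuclear paraspeckles (chromosome 19, 5824708 to 5845478), was at 149, 101, 193 and 112 CPM without and at 54.6, 40.3, 29.8 and 33.6 CPM with stretch. It had the largest fall of any gene with at least 100 counts, a change of -1.82 ± 0.215 on the log2 scale (± standard error, edgeR adjusted p = 5.54e-04). The non-stretched libraries spread from 101 to 193 CPM, and none reached down to the stretched ones. Its neighbour Malat1, a nuclear RNA of speckles, differed by 0.30 on the log2 scale (edgeR adjusted p = 0.450) and was at 451, 700, 396 and 329 CPM in the stretched libraries. Dnm3os (-0.93), the host transcript of microRNAs antisense to Dnm3, and Hotair (-0.68), from the Hoxc cluster, were also downregulated. Of 18 listed long noncoding RNAs tested, not all of them nuclear, 3 were downregulated, 9 fell at the adjusted p and none rose. Their median was -0.27. Of all genes tested, 0.997% were downregulated, and 4.24% fell and 1.67% rose at the adjusted p. In replicates 7 and 8 alone none of the 18 was downregulated. Among these 9 were the snoRNA hosts Snhg12 (-0.36), Gas5 (-0.37) and Snhg3 (-0.41), and H19 (-0.47). By annotation, 17 of 274 genes of the class lincRNA (6.2%) and 12 of 347 antisense genes (3.46%) were downregulated, against 94 of 12236 protein-coding genes (0.768%).

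Predicted and unnamed genes made up 15 of the upregulated and 56 of the downregulated genes, of 2445 tested. These are 0.613% and 2.29% of them, against 0.254% and 0.997% of all genes. The 56 falls became 32 without non-stretched replicate 7, 35 without non-stretched replicate 9, 37, 24 and 27 without stretched replicates 7, 9 and 10, and 22 without both replicates 7. Replicates 7 and 8 alone gave 3 and replicates 9 and 10 alone 36. Among those with at least 100 counts, Gm37795 (-1.25), Gm44168 (-1.24) and Gm43980 (-1.10) fell most, at 0.827 to 1.54, 0.859 to 1.15 and 0.926 to 1.53 CPM in the stretched against 2.07 to 3.17, 1.91 to 2.68 and 2.25 to 3.37 CPM in the non-stretched libraries. They belong to the annotation class TEC, transcripts whose existence awaits experimental proof, and Gm43980 lies antisense to the splicing factor gene Tra2a. Slc2a4rg-ps, a transcribed pseudogene, fell by 0.99 on the log2 scale. Rsrp1, a protein with arginine and serine repeats, was the downregulated gene among 24 SR proteins and their kinases. It was at 66.8, 57.2, 74.9 and 62.7 CPM without and at 40.1, 37.0, 35.5 and 36.1 CPM with stretch (log2 fold change -0.82, standard error 0.0718). The kinases Clk1 (-0.50) and Clk4 (-0.27) fell too, and the list's median was -0.02.

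Of 25 FoxO and atrophy genes 4 were downregulated (0.997% of all genes were). At the adjusted p, 2 rose and 6 fell (1.67% and 4.24% of all genes), with a median of -0.09. The downregulated ones were Bmf (-1.16), which promotes apoptosis, Lpin1 (-0.63), a phosphatidate phosphatase, Pdp2 (-0.62), which activates pyruvate dehydrogenase, and the arrestin gene Arrdc2 (-0.61). Ccng2 (-0.53) and Gadd45b (-0.58) fell by less than the fold limit, and Arrdc3 (0.45) rose. Mylip, which marks the LDL receptor for degradation, was downregulated (-0.85) as the only member of 28 sterol synthesis and related genes. Of these, 25 had a value below 0 (median -0.12), against 48.9% of all genes. At the adjusted p 7 fell, among them Hmgcs1 (-0.33), Stard4 (-0.31) and Idi1 (-0.20). Mylip and the synthesis genes have opposite effects on sterol supply, Mylip lowering uptake and the others raising synthesis.

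Of 29 matrix genes 3 were downregulated (0.997% of all genes were), and 5 fell and 1 rose at the adjusted p (4.24% and 1.67%). Spon2 (-1.06), Islr (-0.76) and Ogn (-0.73) encode secreted matrix proteins and were the downregulated members, and Col6a2 (-0.49) and Col6a1 (-0.43) fell under the limit, while Thbs1 (0.26) rose. Spon2 was at 4.56, 3.604, 6.01 and 6.89 CPM without and at 2.45, 1.91, 2.60 and 3.08 CPM with stretch. Its non-stretched libraries were higher in replicates 9 and 10, and Ogn showed the same (12.7, 11.8, 20.04 and 16.95 CPM). Kcnj2, an inward rectifier potassium channel (-0.98), and Ano5, a membrane protein of muscle (-0.62), were downregulated among 17 channel genes. Heyl, a target of Notch (-1.39), was the downregulated gene of 14 Notch genes, at 0.736, 0.877, 1.80 and 1.95 CPM without and at 0.638, 0.392, 0.374 and 0.648 CPM with stretch. The groups did not overlap, and the gap was smaller in replicates 7 and 8.

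Non-stretched replicates 9 and 10 also held more transcripts of differentiated muscle. The mean log2 CPM of 21 sarcomere genes in non-stretched replicates 7 to 10 was -0.311, -0.344, 0.0875 and 0.567 around their common mean, and -0.494 and -0.194 were the lowest and highest values of the stretched libraries. The groups overlapped. Of the 21 genes, Apobec2 (-0.67) was downregulated and Actn3 (-0.28) fell, and 18 had a value below 0 (median -0.38), against 48.9% of all genes. Tnnt1 (-1.02, edgeR adjusted p = 0.0714) and Myh3 (-0.88, 0.221) did not pass. None of the 8 differentiated muscle markers tested passed the adjusted p. Myog, the master factor of differentiation, stood just above the limit, at -1.25 on the log2 scale (edgeR adjusted p = 0.0501). It was at 0.942, 1.05, 1.85 and 2.45 CPM without and at 0.391, 0.660, 0.599 and 0.956 CPM with stretch. The paper, which used DESeq2, describes myogenin as downregulated in stretched myoblasts, without naming a time there. Of 18 myogenic factors none was upregulated or downregulated, and Six4 (-0.58) fell by less than the fold limit. The part of these transcripts in the falls of Heyl, Spon2 and Ogn was not tested.

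Many pathways gave no called gene. This held for the Kruppel-like factors (12 tested), NF-kappaB feedback genes (15), Wnt genes (23), TGF-beta and BMP genes (31), integrins and focal adhesion genes (27), heat shock genes (18), endoplasmic reticulum stress genes (21), ATF4 targets (18), cell cycle genes (32) and clock genes (19). At the adjusted p alone, 5 of the TGF-beta and BMP genes rose, among them Smad7 (0.47) and Fst (0.44). None fell, and of all genes 1.67% rose and 4.24% fell. Klf6 (0.38), Klf11 (0.29) and Klf5 (0.26) rose, and Klf10 (-0.32), Klf3 (-0.27) and Klf7 (-0.21) fell. Dnajb1 (0.20) was the heat shock gene that passed. The cold-inducible genes Rbm3 and Cirbp had values of 0.04 and 0.01. Of 71 histone genes, Hist1h2ap (-0.61), was downregulated, though other genes hold 93.4% of its 31-base stretches.

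The response at 1 h was compared with those at 3 h and 6 h, which have their own non-stretched myoblasts. Upregulated genes were 0.459% of those tested at 3 h and 1.35% at 6 h, and downregulated genes 1.25% and 0.823%. Of the 38 genes upregulated at 1 h, 6 were also upregulated at 3 h (15.8% of the 1 h and 8.82% of the 3 h genes), namely Apol8, Btbd18, Edn1, Fosb, Gp1ba and Il20rb, and only Pagr1a at 6 h. Of the 149 downregulated genes, 12 were so at 3 h (8.05% and 6.49%) and 5 at 6 h (3.36% and 4.07%), and Bmf, Ogn and Spon2 at all 3 times. The effect of stretch differed between 1 h and 3 h by an interaction term for 1713 of 15435 genes (11.1%), and between 1 h and 6 h for 2790 of 15455 (18.1%). Among the upregulated genes, 25 of 38 rose more at 1 h than at 3 h and 26 more than at 6 h. Among the downregulated genes 73 of 149 and 104 of 149 fell more at 1 h. A group chosen for its size at 1 h tends to be larger there, so these counts describe the genes and were not tested further.

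Egr1 turned in direction. Its log2 fold change was 1.40 at 1 h, -0.63 at 3 h (edgeR adjusted p = 4.75e-06) and -0.54 at 6 h (edgeR adjusted p = 1.84e-04). Fos was at -0.25 and 0.05 at the later times, neither of which passed. Fosb was still 0.71 higher at 3 h and at -0.02 at 6 h, and Edn1 had log2 fold changes of 0.77 at 1 h and 0.71 at 3 h. Lpin1 and Pdp2, which fell at 1 h, were upregulated at 6 h (0.60 and 0.59). Zfp866 had values of -0.05 at 3 h and -0.01 at 6 h. Of the 37 downregulated Zfp genes none was downregulated at either later time, and the median of all Zfp genes moved from -0.21 at 1 h to -0.09 at 3 h and 0.08 at 6 h. In genes with 10 or more fingers these medians were -0.29, -0.125 and 0.09. Kcnj2, by contrast, fell by 0.98 at 1 h and by 1.12 at 3 h on the log2 scale.

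**Figure D5:**
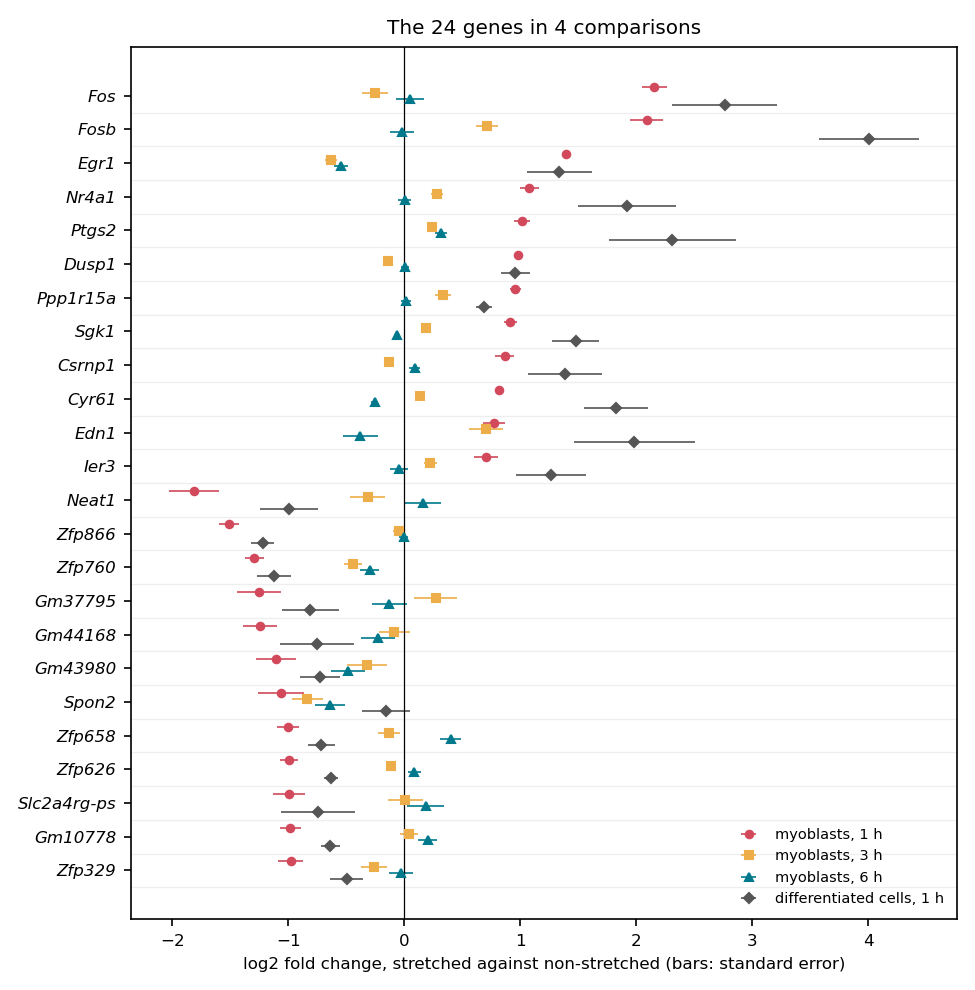
Log2 fold change with its standard error for the 24 genes with the largest rises and falls at 1 h, for the 3 times in myoblasts (1 h, 3 h, 6 h) and for differentiated cells at 1 h. Most points of 3 h and 6 h lie near 0, and Egr1 lies at -0.63 and -0.54 there.

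Differentiated C2C12 cells stretched for 1 h, counted in a separate table with their own non-stretched cells, were compared last. Of the genes tested there, 28 of 30 upregulated and 133 of 139 downregulated myoblast genes had the same sign. In myoblasts these numbers were 19 of 37 and 116 of 144 at 3 h, and 16 of 36 and 76 of 148 at 6 h. The share of all genes with the same sign was not counted. In the differentiated cells 0.0901% of genes rose and 0.18% fell past both limits. Of their 14 upregulated genes 8 were also upregulated in myoblasts (57.1%, or 21.1% of the 38), and of their 28 downregulated genes 18 were (64.3%, or 12.1% of the 149). With DESeq2 in both tables the shared genes were 18 rises and 39 falls. The shared rises were Fos, Fosb, Dusp1, Ppp1r15a, Sgk1, Cyr61, Apol8 and the unnamed RP24-344N22.5. Stretched replicate 4 of the differentiated cells is the only library of its experiment. Without it, 0.172% were upregulated and 0.184% downregulated, 15 of 27 and 15 of 29 of these genes were shared, and Egr1, Nr4a1, Ptgs2, Csrnp1, Ier3, Atf3 and Ctgf joined the shared rises. Fosb had a log2 fold change of 4.01 in the differentiated cells (3.38 without that library), and Cyr61 of 1.83 (1.38). Egr1 had one of 1.33 (0.88), and Zfp866 of -1.22 (-1.14). The shared falls included Zfp866, Zfp760, Zfp658, Zfp626, Zfp87, Zfp60, Zfp235, Zbtb26, Hoxa3 and Mylip. The median of the Zfp genes was -0.16 in differentiated cells, and -0.17 without replicate 4. Neat1 was at -0.99 there and did not pass (edgeR adjusted p = 0.137), and Spon2 was at -0.16. No test was made between the stages, since their tables are separate.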

How the data were processed

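The paper describes stranded mRNA libraries of C2C12 cells, while the molecule label of the samples names nuclear RNA. Which of these holds was not settled. The authors aligned the reads to mm10 with STAR and quantified them with Salmon. The deposited values are whole-number counts per gene symbol, not normalised, and 47480 symbols were in the table. How Salmon's estimates became whole numbers, and whether strand was used, is not given in the sources used here. The members and lists were chosen with earlier results of these data known. Counts of the 8 libraries were filtered with filterByExpr, scaled with TMM factors and tested with edgeR 4.0.16 (quasi-likelihood F test, R 4.3.3), with Benjamini-Hochberg adjustment over all 14938 genes. A gene was called up- or downregulated at an adjusted p under 0.05 with a log2 ratio of 0.58 or more. Times were compared by an interaction term over all myoblast libraries of both times. The script was tested on simulated data. Named were the 12 largest rises and falls among called genes with at least 100 counts and no overlap, called members of the lists and up to 4 further members of each. Other genes were named after their values were seen. Coordinates, transcript classes, C2H2 fingers and 31-base stretches came from GENCODE vM21 (14443 of 14938 genes matched), and promoters from RefSeq. With 4 samples a group and 50998523 to 68856205 counts a library, the precision of low genes is limited by counting. Alternatives were DESeq2 1.42.0, other scalings, filters and fold limits, covariates, and leaving out libraries.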

Additional observations from a re-analysis of the deposited data

Results flagged for a closer look

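Among the 24 genes with the largest rises and falls, 1 library stood apart from the others of its group by Dixon's test. Stretched replicate 7 held 1.40 CPM of the pseudogene Slc2a4rg-ps, against 0.988 to 1.01 CPM in the other stretched libraries, and all were below the non-stretched ones. This was 1 of 48 groups examined, and chance alone gives about 1 in 20.

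The effect of stretch at 1 h differed from that at a later time in 43 of 48 comparisons of these genes, by the interaction term of edgeR's quasi-likelihood test. Values are the log2 fold change at 1 h minus that at the later time. Against 3 h, the response was higher at 1 h for Fos (2.41), Fosb (1.38), Egr1 (2.03), Nr4a1 (0.79), Ptgs2 (0.78), Dusp1 (1.12), Ppp1r15a (0.63), Sgk1 (0.73), Csrnp1 (1.00), Cyr61 (0.68) and Ier3 (0.48). It was lower for Neat1 (-1.50), Zfp866 (-1.46), Zfp760 (-0.85), Gm37795 (-1.53), Gm44168 (-1.16), Zfp658 (-0.87), Zfp626 (-0.88), Slc2a4rg-ps (-1.003), Gm10778 (-1.03) and Zfp329 (-0.72). Against 6 h, it was higher at 1 h for Fos (2.10), Fosb (2.11), Egr1 (1.94), Nr4a1 (1.07), Ptgs2 (0.69), Dusp1 (0.97), Ppp1r15a (0.94), Sgk1 (0.97), Csrnp1 (0.77), Cyr61 (1.07), Edn1 (1.15) and Ier3 (0.75). It was lower for Neat1 (-1.98), Zfp866 (-1.51), Zfp760 (-0.99), Gm37795 (-1.13), Gm44168 (-1.02), Zfp658 (-1.41), Zfp626 (-1.08), Slc2a4rg-ps (-1.18), Gm10778 (-1.19) and Zfp329 (-0.95). These genes were chosen for their change at 1 h, so larger values there are in part built into the choice.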

How the results depend on the processing

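The 24 genes with the largest rises and falls kept their direction in each alternative run on them, and other genes were not followed singly. They were picked for groups without overlap, so leaving out libraries could hardly reverse them, and the kept direction is built into the choice. Against the fold limit itself (glmTreat), 10 genes rose, 6 fell and 3 of these were Zfp genes, so that 62.5% of calls were rises against 20.3%. Without the fold limit there were 250 rises (28.3% of calls), 634 falls and 118 Zfp falls. Replicates 7 and 8 alone gave 13 rises (48.1%), 14 falls and 8 Zfp falls, and replicates 9 and 10 alone 24 rises. Leaving out 1 library gave 26 (without stretched replicate 9) to 41 rises (without stretched replicate 7), 96 (without non-stretched replicate 9) to 164 falls and 22 (without non-stretched replicate 9) to 41 Zfp falls. It gave 1458 to 1846 genes that differed between 1 h and 3 h and 2310 to 3144 between 1 h and 6 h. Without both replicates 7, an alternative chosen after seeing the data, 95 genes fell. Shared with differentiated cells were 18 rises and 39 falls by DESeq2, and 15 rises without differentiated stretched replicate 4, also chosen after seeing the data. The causes were not tested, beside the fewer samples and other limits that these alternatives bring by construction. Of the 24 named genes, 11 lost their call under glmTreat, 10 in replicates 7 and 8 alone and 1 in replicates 9 and 10 alone. DESeq2 made 39 and 154 calls, of which 34 and 138 were calls of edgeR.

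Deviations of same-numbered libraries correlated by 0.0391 to 0.152, and those of differently numbered libraries by -0.122 to 0.0936. These weak values do not settle whether the replicate numbers pair the samples, and the main test used no pairing. With a replicate block there were 31 rises, 139 falls and 33 Zfp falls, and 1512 and 2616 genes whose effect differed from 3 h and 6 h.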
